A study of Mus musculus with 21 samples.

Results

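Oxidative phosphorylation genes encode the nuclear subunits of the 5 protein complexes of the mitochondrial inner membrane that carry electrons to oxygen and make ATP. They were followed here in lung fibroblasts through bleomycin- and silica-induced fibrosis. Members were all gene symbols of the deposited count files whose name begins with Nduf followed by a, b, c, s or v and a digit, with Uqcr, with Atp5 or with Cox followed by 4 to 8, together with Cyc1, Sdha, Sdhb, Sdhc and Sdhd. This rule used names only and gave 83 of 23204 symbols. It gave 34 genes of complex I, 4 of complex II, 9 of complex III, 18 of complex IV and 15 of the ATP synthase. A further 3 matched by name without encoding a subunit of the ATP synthase: the factor B gene Atp5s, the complex I assembly gene Atp5sl and the pseudogene Atp5c1-ps.

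Every library came from female C57BL/6 mice with a Col1a2-GFP transgene, in which the promoter of the collagen gene Col1a2 marks fibroblasts with green fluorescent protein. Mice at 7, 14 and 63 days after bleomycin (BLM, 2 mg/kg) or crystalline silica (SiO2, 400 mg/kg), each given once into the airway in saline, were compared with untreated mice. The series describes the BLM model as reversible and the SiO2 model as progressive, and the controls are labelled untreated, with no saline group. Each library held 10000 sorted cells that were GFP-positive and negative for CD45, CD31, EpCAM, CD146 and Ter119, and there were 3 libraries in each of 7 groups. The labels do not say whether replicate libraries came from separate mice or pools, so p-values measure only the spread between these libraries.

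Complex I takes electrons from NADH and complex II from succinate. Complex III passes them on to cytochrome c, and complex IV (cytochrome c oxidase) reduces oxygen with them. Complexes I, III and IV pump protons, and the ATP synthase uses the proton gradient to make ATP. Nuclear genes for these subunits share promoter sites for NRF1, for ETS factors such as GABP and for YY1, and several complex IV subunits have isoforms that are used in particular tissues or at low oxygen. The subunits encoded by mitochondrial DNA were not analysed here, since 0 of 13 such symbols were among those used.

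The promoters below belong to 3 members that rose at SiO2 day 7 and that differ in these shared sites. They are RefSeq sequences on GRCm38.p6, from 250 bases before to 50 after the annotated start. Capitals mark matches to the NRF1 letters GCGCANGCG or the ETS letters CCGGAAG on either strand.
Cox5a (chr9:57520982-57521281, + strand): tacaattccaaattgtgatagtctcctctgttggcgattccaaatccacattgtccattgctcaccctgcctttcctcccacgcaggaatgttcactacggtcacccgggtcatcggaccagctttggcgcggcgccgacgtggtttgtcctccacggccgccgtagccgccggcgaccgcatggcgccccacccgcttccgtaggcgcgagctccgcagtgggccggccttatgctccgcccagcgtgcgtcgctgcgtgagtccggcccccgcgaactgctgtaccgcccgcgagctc
Atp5g2 (chr15:102670998-102671297, - strand): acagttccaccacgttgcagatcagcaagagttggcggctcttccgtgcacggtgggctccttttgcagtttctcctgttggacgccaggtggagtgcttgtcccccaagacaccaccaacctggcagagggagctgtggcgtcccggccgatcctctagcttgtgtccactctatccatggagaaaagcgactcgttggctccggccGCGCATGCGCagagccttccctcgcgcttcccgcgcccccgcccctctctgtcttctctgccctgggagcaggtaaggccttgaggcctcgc
Sdhd (chr9:50603800-50604099, - strand): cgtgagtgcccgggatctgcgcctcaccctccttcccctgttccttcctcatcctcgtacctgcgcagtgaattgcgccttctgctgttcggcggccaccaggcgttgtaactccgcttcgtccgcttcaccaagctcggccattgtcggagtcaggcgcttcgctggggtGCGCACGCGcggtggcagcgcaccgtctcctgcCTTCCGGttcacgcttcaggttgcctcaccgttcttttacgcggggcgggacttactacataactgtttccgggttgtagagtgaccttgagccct

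The Atp5g2 window held an NRF1 match that reads on both strands, counted as 2 overlapping matches that begin at base -42 and base -41 from the start. The Sdhd window held an NRF1 match at base -79 and an ETS match at base -46, and the Cox5a window held neither. Of 83 members, 64 had a promoter entry, with 69 windows because 5 genes had 2 entries. The NRF1 letters were in 20 of the 69 windows (29.0%), against 6.25% of all 32851 promoter windows. The ETS letters were in 16 windows (23.2%), against 8.86% of all windows, and the YY1 letters AAGATGGCG in 7 (10.1%), against 1.40%. The E-box CACGTG was in 6 (8.70%), against 7.15%. The hypoxia core ACGTG, which lies within that E-box, was in 16 (23.2%), against 19.6% of all windows. Windows were searched on both strands, and a match describes the letters only.

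The shallowest library held 2080636 counts and the deepest 4477283, of which members made up 0.680% to 0.877%. Levels are given as CPM, the tags of a gene relative to the tags of the 11669 tested genes in its library, after TMM scaling. Levels were uneven: Atp5c1, Uqcrc1, Ndufa2 and Sdhc together held 67.3% of the members' summed CPM. Because a transcript gives tags at its 3′ end, no division by length was made. Shares and sums over members describe tags, and were not read as a ranking of transcript levels between genes. A filter on low counts kept 77 members among 11669 tested genes. The 6 members it removed were Ndufc1 with 107 counts over all 21 libraries, Cox7a2 with 90, Atp5e with 40, Cox4i2 with 8, Cox7b2 with 6 and Cox7a1 with 1. The coefficient of variation among replicates had a median of 12.8% over the tested members, against 16.3% over all tested genes. Defining fibroblast genes summed to between 16483 and 30301 CPM. Among markers of other cell types, the highest sums in any library were 195 CPM for 5 mesothelial genes, 72.1 for 3 lymphocyte, 48.1 for 7 myeloid, 31.9 for 6 pericyte and smooth muscle, 28.4 for 6 epithelial and 10.2 for 5 endothelial genes.

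Each treated group was compared with the untreated group to ask how these genes moved as fibrosis began, progressed and, in the BLM model, resolved. A gene was called at an adjusted p under 0.05 in edgeR's quasi-likelihood test, fitted on all 11669 genes, and fold changes are log2 of the treated over the untreated level, ± SE. All 6 comparisons share the 3 untreated libraries. At BLM day 7, 10 of 77 members rose and 6 fell, so that 20.8% were called, against 31.6% of all tested genes; of all tested genes 16.7% were higher and 14.9% lower. At BLM day 14, 20 rose and 6 fell (33.8% called, against 39.3%), where of all tested genes 20.7% were higher and 18.5% lower. At BLM day 63, 2 rose and 1 fell (3.90%, against 11.5%), where of all tested genes 6.02% were higher and 5.48% lower. At SiO2 day 7, 22 rose and 5 fell (35.1%, against 44.1%), where of all tested genes 23.4% were higher and 20.6% lower. At SiO2 day 14, 1 rose and 7 fell (10.4%, against 24.1%), where of all tested genes 13.6% were higher and 10.5% lower. At SiO2 day 63, 3 rose and 11 fell (18.2%, against 27.8%), where of all tested genes 15.3% were higher and 12.5% lower. The share of members called was below that of all genes in each of the 6 comparisons, a difference that was not tested.

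The median log2 fold change of the tested members was 0.08, 0.18 and -0.00 at BLM day 7, 14 and 63, where that of all tested genes was 0.02, 0.02 and 0.01. It was 0.20, -0.01 and 0.03 at SiO2 day 7, 14 and 63, where that of all genes was 0.04, 0.03 and 0.02. Summed over members, the level was 8209 ± 213, 8775 ± 250 and 7372 ± 82.0 CPM at BLM day 7, 14 and 63 (SD, n = 3). It was 8802 ± 131, 7227 ± 433 and 7515 ± 232 CPM at SiO2 day 7, 14 and 63, against 7465 ± 268 CPM in untreated libraries. The sums at BLM day 7 and 14 and SiO2 day 7 did not overlap with those of the untreated libraries, which ran from 7245 to 7763 CPM. Without the 4 most counted members the sum was 2658 ± 90.6 CPM at BLM day 7, 2830 ± 161 CPM at BLM day 14 and 2885 ± 144 CPM at SiO2 day 7, against 2479 ± 116 CPM in untreated libraries. Markers of other cell types also differed between these groups. Pericyte and smooth muscle markers summed to 13.9 to 20.6 CPM at BLM day 7, 22.4 to 29.7 CPM at BLM day 14 and 22.6 to 31.9 CPM at SiO2 day 7, against 5.15 to 5.70 CPM in untreated libraries, where 3 of the 6 were at 0. Lymphocyte markers summed to 29.5 to 52.5, 8.29 to 15.5 and 29.6 to 72.1 CPM in these 3 groups, where 2 of the 3 genes were at 0, against 3.28 to 5.02 CPM in untreated libraries. Myeloid markers summed to 22.3 to 39.6, 18.2 to 23.0 and 14.2 to 17.8 CPM in them, against 5.70 to 10.8 CPM in untreated libraries. Epithelial markers summed to 24.4 to 28.4, 4.97 to 6.00 and 18.7 to 26.3 CPM in them, against 5.78 to 8.90 CPM in untreated libraries. Mesothelial markers summed to 81.1 to 175, 75.9 to 88.4 and 37.5 to 56.2 CPM in them, against 76.7 to 151 CPM in untreated libraries. The part of these cells in the summed member levels was not tested. In these bulk libraries fewer cells of a kind and less RNA per cell cannot be told apart.

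When the 6 libraries of a comparison were left out in turn, 7 of 16 calls held in every fit at BLM day 7, 16 of 26 at BLM day 14 and 17 of 27 at SiO2 day 7. At BLM day 63, SiO2 day 14 and SiO2 day 63 it was 1 of 3, 4 of 8 and 3 of 14. The count at BLM day 7 was 10 without BLM day 7 replicate 2, and at BLM day 63 it was 5 without untreated replicate 3. At SiO2 day 14 it was 5 without untreated replicate 1 and 4 without SiO2 day 14 replicate 2. At SiO2 day 63 it was 8 without untreated replicate 2, SiO2 day 63 replicate 2 or SiO2 day 63 replicate 3.

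**Figure D1:**
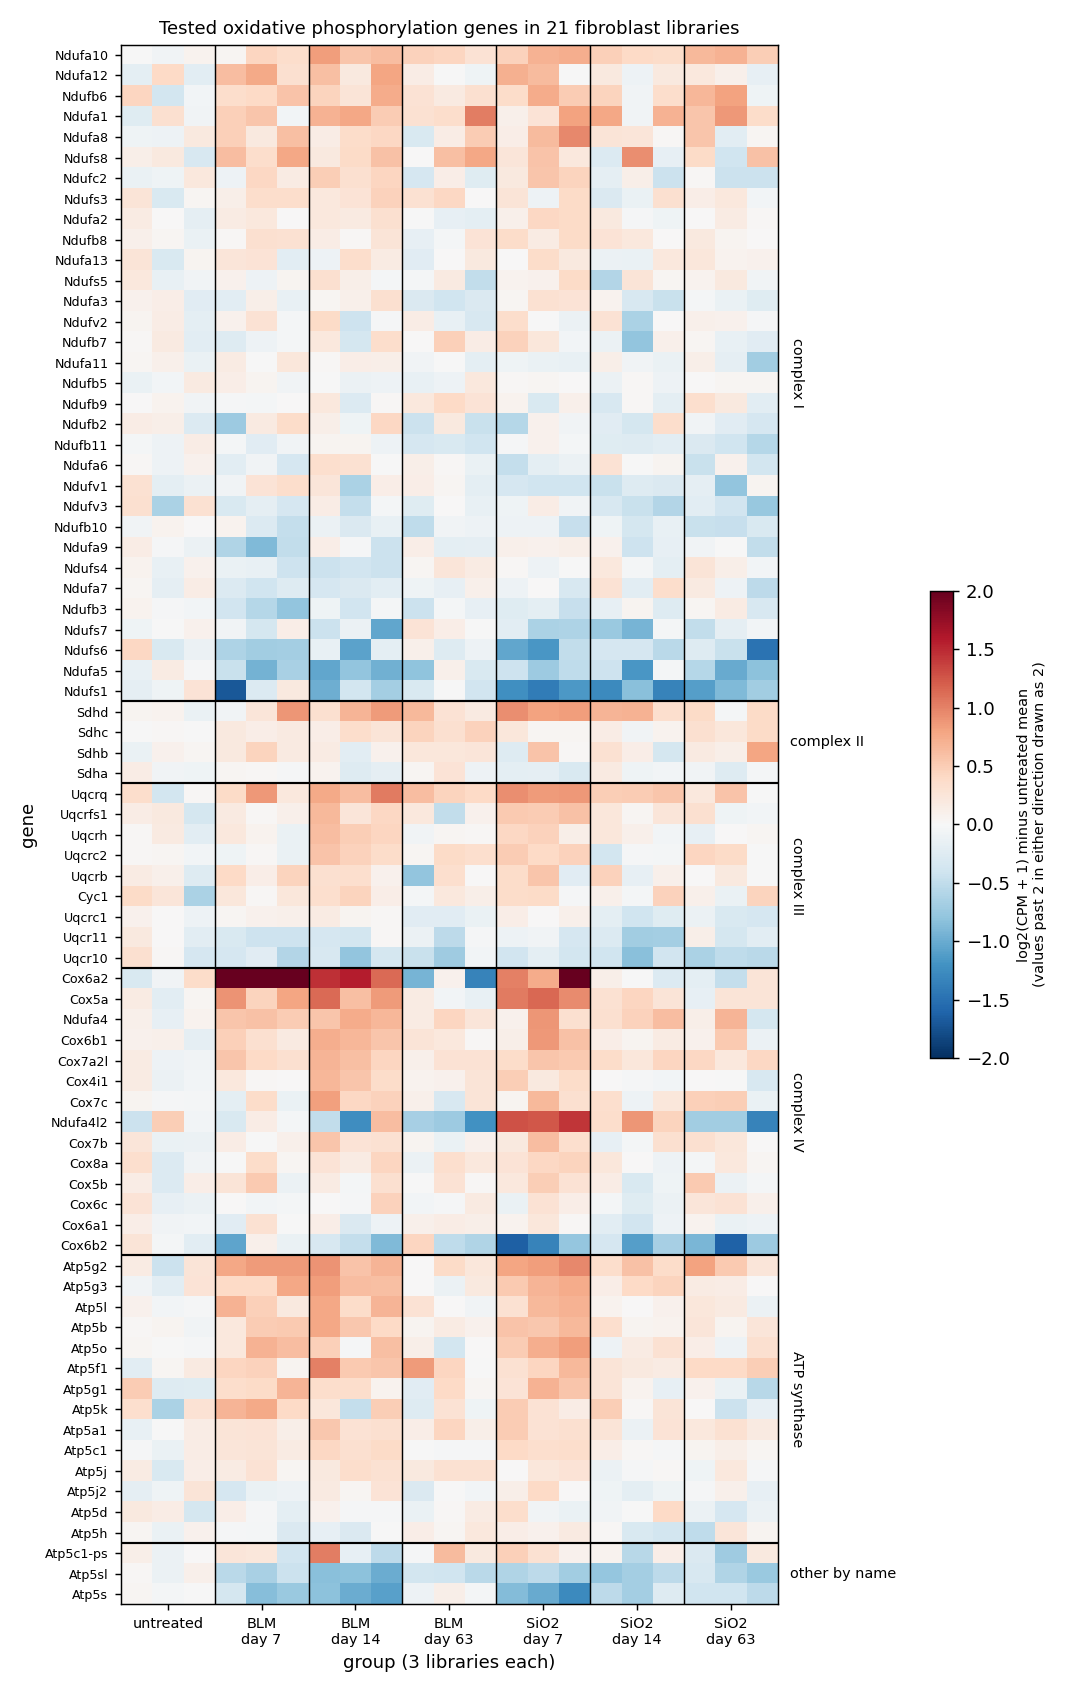
Each row is 1 of 76 tested genes and each column 1 of the 21 libraries; colour gives log2(CPM + 1) minus the mean of the 3 untreated libraries, drawn as 2 where it is larger. Red blocks at BLM day 7, BLM day 14 and SiO2 day 7 lie mostly in the ATP synthase and complex IV rows, and the lowest complex I rows (Ndufs6, Ndufa5, Ndufs1) are blue.

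**Figure D2:**
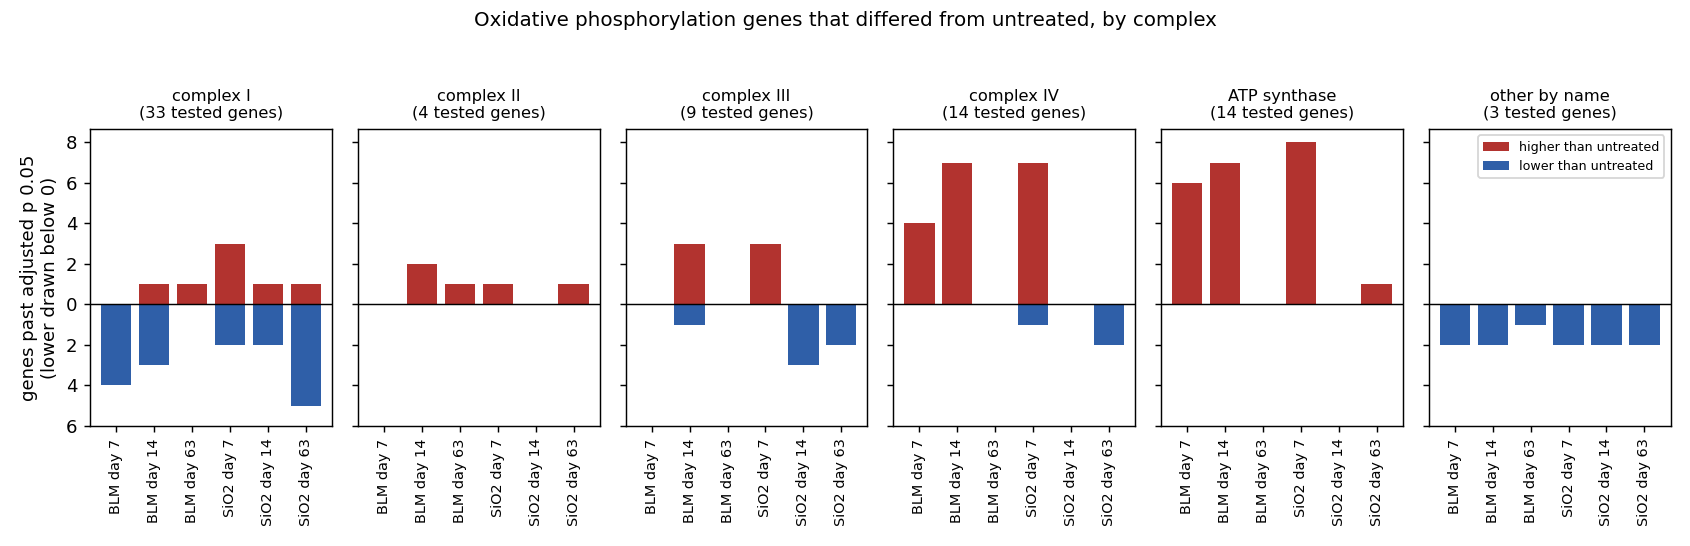
Bars give the number of tested genes of each complex past an adjusted p of 0.05 in each comparison with untreated, higher above 0 and lower below 0. The ATP synthase has 6, 7 and 8 genes higher and 0 lower at BLM day 7, BLM day 14 and SiO2 day 7. In these comparisons complex I has 4, 3 and 2 genes lower. Its higher genes are Ndufa10 at BLM day 14, and Ndufa10, Ndufa2 and Ndufa8 at SiO2 day 7. Of all tested genes, 16.7%, 20.7% and 23.4% were higher and 14.9%, 18.5% and 20.6% lower in these comparisons, in order.

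The ATP synthase has a rotating ring of c subunits in the membrane and a catalytic head of alpha and beta subunits around a gamma shaft. Of its 14 tested genes, 6 rose at BLM day 7, 7 at BLM day 14 and 8 at SiO2 day 7, and 0 fell in any of these. At BLM day 63 and SiO2 day 14, 0 were called in either direction by edgeR, where 1 and 2 had an unadjusted p under 0.05, and at SiO2 day 63 only Atp5g2 was called. Of all tested genes 16.7%, 20.7% and 23.4% were higher at BLM day 7, BLM day 14 and SiO2 day 7. The shares lower were 14.9%, 18.5% and 20.6%. At BLM day 63, SiO2 day 14 and SiO2 day 63, 11.5%, 24.1% and 27.8% of all tested genes were called. At SiO2 day 7 all 14 ATP synthase genes had a positive log2 fold change, with a median of 0.42. Summed ATP synthase levels were 3092, 3417 and 2602 CPM at BLM day 7, 14 and 63 and 3406, 2690 and 2732 CPM at SiO2 day 7, 14 and 63, against 2586 CPM in untreated libraries. Most of this sum was Atp5c1.

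Atp5b, the catalytic beta subunit, had 236, 201 and 183 CPM in BLM day 14 libraries and 204, 201 and 216 CPM in SiO2 day 7 libraries, against 140, 143 and 132 CPM in untreated libraries. Each of those treated libraries was above all 3 untreated ones. Its log2 fold change was 0.42 ± 0.11 at BLM day 7 (adjusted p = 0.0036), 0.58 ± 0.11 at BLM day 14 (adjusted p = 9.2e-05) and 0.58 ± 0.11 at SiO2 day 7 (adjusted p = 6.3e-05). At BLM day 63 it averaged 148 ± 6.52 CPM and at SiO2 day 63 157 ± 11.3 CPM (SD, n = 3), and neither passed the test. Atp5c1, the gamma shaft, averaged 2552 ± 74.4 CPM at BLM day 14 and 2542 ± 60.2 CPM at SiO2 day 7, against 1976 ± 187 CPM in untreated libraries. These were log2 fold changes of 0.37 ± 0.08 and 0.36 ± 0.08. Atp5a1, the alpha subunit, was called at the same times, at 0.40 ± 0.13 and 0.39 ± 0.13, with adjusted p = 0.092 in each comparison without untreated replicate 1.

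The c subunit of the rotor is the same mature protein from each of Atp5g1, Atp5g2 and Atp5g3. Atp5g2 had 22.6, 23.8 and 23.8 CPM at BLM day 7, 24.7, 19.4 and 21 CPM at BLM day 14 and 22.8, 23.6 and 25.8 CPM at SiO2 day 7, against 14.5, 9.29 and 15.5 CPM in untreated libraries. None of the 9 treated libraries overlapped with the untreated ones. Its log2 fold change was 0.87 ± 0.19 at BLM day 7 (adjusted p = 0.00068), 0.76 ± 0.19 at BLM day 14 (adjusted p = 0.0023) and 0.91 ± 0.19 at SiO2 day 7 (adjusted p = 2.0e-04). Atp5g3 had 65.3, 55.6 and 55.5 CPM at BLM day 14 and 52.4, 58.4 and 61.0 CPM at SiO2 day 7, against 34.2, 31.1 and 44.0 CPM in untreated libraries. It rose by log2 0.56 ± 0.15, 0.71 ± 0.15 and 0.68 ± 0.14 in those 3 comparisons. Atp5g1 had 30.6, 41.4 and 37.5 CPM at SiO2 day 7, against 36.3, 20.8 and 21.1 CPM in untreated libraries, which overlapped, and it was not called in any of the 6 comparisons. At SiO2 day 63, Atp5g2 was at log2 0.57 ± 0.19 over untreated (adjusted p = 0.024), but at 0.36 with adjusted p = 0.228 without untreated replicate 2, and it was also lost without SiO2 day 63 replicate 1 or 2.

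Atp5l, the g subunit of the membrane part, had 342, 260 and 323 CPM at BLM day 14 and 249, 315 and 327 CPM at SiO2 day 7, against 213, 192 and 196 CPM in untreated libraries. It rose by log2 0.62 ± 0.13 and 0.56 ± 0.13 there. Atp5o, which joins the head to the stalk, averaged 23.9 ± 2.80 CPM at SiO2 day 7, against 14.4 ± 0.363 CPM in untreated libraries, a log2 fold change of 0.73 ± 0.19 (adjusted p = 0.0028). The same-strand gene Donson overlaps the end of Atp5o and also rose then, by 1.06 ± 0.30, and its part in the Atp5o counts was not tested. Atp5f1, the stalk b subunit, rose by 0.75 ± 0.21 at BLM day 14 (adjusted p = 0.0047).

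Complex IV, where electrons meet oxygen, had 4 of 14 tested genes higher at BLM day 7, 7 at BLM day 14 and 7 at SiO2 day 7, with 1 lower at SiO2 day 7. By edgeR, 0 were called at BLM day 63 and SiO2 day 14, where 1 and 2 had an unadjusted p under 0.05, and 2 were lower at SiO2 day 63. Of all tested genes 16.7%, 20.7% and 23.4% were higher at BLM day 7, BLM day 14 and SiO2 day 7. The shares lower were 20.6% at SiO2 day 7 and 12.5% at SiO2 day 63. At BLM day 63 and SiO2 day 14, 11.5% and 24.1% of all tested genes were called. Cox5a (chr9:57521274-57532426, + strand, GENCODE vM21 on mm10), a nuclear subunit next to the catalytic core, had 42.7, 30.9 and 39.6 CPM at BLM day 7 and 50.5, 34.7 and 41.5 CPM at BLM day 14. It had 47.2, 51.0 and 44.0 CPM at SiO2 day 7, against 25.4, 19.3 and 22.9 CPM in untreated libraries. The 9 treated libraries were all above the untreated ones. Its log2 fold change was 0.74 ± 0.17 at BLM day 7 (adjusted p = 0.00096), 0.90 ± 0.17 at BLM day 14 (adjusted p = 6.4e-05) and 1.07 ± 0.16 at SiO2 day 7 (adjusted p = 3.0e-06), and no left-out library ended these calls.

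At later times Cox5a was not called against untreated, at 25.1, 21.5 and 20.2 CPM at BLM day 63, 27.9, 30.6 and 27.0 CPM at SiO2 day 14 and 20.0, 27.2 and 27.2 CPM at SiO2 day 63. The SiO2 day 14 libraries still lay above the untreated ones, while both day 63 groups overlapped with them. Its decrease within the BLM model was log2 -0.91 ± 0.16 at day 63 over day 14 (adjusted p = 5.4e-05). Within the SiO2 model it was -0.73 ± 0.16 at day 14 over day 7 (adjusted p = 0.00069). The gene end of Cox5a overlaps Gm26631 on the opposite strand, and the strand used in counting is not given in the sources used here.

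Cox4i1 encodes the common isoform of subunit IV. It had 67.5, 62.5 and 55.0 CPM at BLM day 14, against 47.7, 39.2 and 40.7 CPM in untreated libraries. All 3 BLM day 14 libraries were above the untreated ones, and the log2 fold change was 0.53 ± 0.13 (adjusted p = 0.0017). Its isoform partner Cox4i2, known from lung and low oxygen, had at most 0.528 CPM in any library and was not tested. Cox6b1 averaged 32.5 ± 1.96 CPM at BLM day 14, against 20.4 ± 2.25 CPM in untreated libraries (log2 0.65 ± 0.18, adjusted p = 0.0047). Cox7a2l, which takes part in the assembly of respiratory supercomplexes, rose by log2 0.44 ± 0.15, 0.58 ± 0.15 and 0.49 ± 0.15 at BLM day 7, BLM day 14 and SiO2 day 7. Cox6a1, the broadly expressed isoform of subunit VIa, averaged 41.7 ± 8.06 CPM at BLM day 7, 38.4 ± 5.71 CPM at BLM day 14 and 43.8 ± 3.31 CPM at SiO2 day 7, against 40.7 ± 3.57 CPM in untreated libraries, and was not called in any of the 6 comparisons. Cox8a averaged 94.9 ± 5.83 CPM at SiO2 day 7, against 74.1 ± 16.6 CPM in untreated libraries (log2 0.35 ± 0.14, adjusted p = 0.046), and adjusted p = 0.296 without untreated replicate 2.

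Cox6a2 (chr7:128205435-128206387, - strand) encodes the isoform of subunit VIa known from heart and skeletal muscle, and it had the largest log2 fold change of the tested members at BLM day 7. It had 23.8, 61.3 and 75.1 CPM at BLM day 7, 12.0, 13.1 and 9.40 CPM at BLM day 14 and 1.49, 4.02 and 0.889 CPM at BLM day 63. In silica it had 8.53, 6.91 and 34.9 CPM at day 7, 4.16, 3.73 and 2.92 CPM at day 14 and 3.15, 2.40 and 4.67 CPM at day 63, against 2.85, 3.52 and 5.15 CPM in untreated libraries. All libraries of BLM day 7, BLM day 14 and SiO2 day 7 were above the untreated ones, and those of the other treated groups overlapped with them. Over untreated, the log2 fold change was 3.86 ± 0.48 at BLM day 7 (adjusted p = 1.9e-07), between 3.54 and 4.21 in the alternatives. At BLM day 14 it was 1.65 ± 0.56 (adjusted p = 0.020), with adjusted p = 0.086 without untreated replicate 1, 0.063 without the second untreated library and 0.058 when BLM day 14 replicate 2 was left out. At SiO2 day 7 it was 2.2 ± 0.52 (adjusted p = 0.00097), which rested on replicate 3: without it the value was 1.07 with adjusted p = 0.077.

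The 6 striated muscle markers summed to 1.74 to 4.49 CPM in BLM day 7 libraries, against 2.76 to 5.18 CPM in untreated libraries, and these ranges overlapped. The marker sums of 7 myeloid, 3 lymphocyte and 6 epithelial genes were 22.3 to 39.6, 29.5 to 52.5 and 24.4 to 28.4 CPM at BLM day 7, against 5.70 to 10.8, 3.28 to 5.02 and 5.78 to 8.90 CPM in untreated libraries. These sums moved with Cox6a2 at day 7. At SiO2 day 14 they were 26.5 to 48.1, 22.8 to 33.8 and 5.33 to 8.02 CPM, where Cox6a2 overlapped with untreated. Pericyte and smooth muscle markers summed to 13.9 to 20.6 CPM at BLM day 7, against 5.15 to 5.70 CPM in untreated libraries. The part of these cells in the rise of Cox6a2 was not tested. Of the lymphocyte markers, 2 of 3 were at 0 in all BLM day 7 libraries. The gene Itgad overlaps Cox6a2 on the opposite strand and was not used here.

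Ndufa4 and Ndufa4l2 encode related small proteins of complex IV and of its surroundings. Ndufa4l2 (chr10:127514967-127517154, + strand) is known as a hypoxia-induced gene whose product lowers complex I activity. Ndufa4l2 had 13.3, 13 and 14.9 CPM at SiO2 day 7, 6.54, 9.86 and 7.05 CPM at SiO2 day 14 and 2.63, 2.66 and 1.34 CPM at SiO2 day 63. It had 3.77, 5.55 and 4.75 CPM at BLM day 7 and 3.18, 1.49 and 8.01 CPM at BLM day 14, against 3.37, 7.28 and 4.68 CPM in untreated libraries. The SiO2 day 7 libraries were above those of every other group. The log2 fold change was 1.40 ± 0.33 at SiO2 day 7 over untreated (adjusted p = 0.00093) and 1.54 ± 0.33 at SiO2 day 7 over BLM day 7 (adjusted p = 0.0019), and both held without each library. At SiO2 day 63 it was -1.24 ± 0.44 over untreated (adjusted p = 0.031), with adjusted p = 0.271 without untreated replicate 2 and 0.152 without SiO2 day 63 replicate 3.

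Pericyte and smooth muscle markers, 6 genes, summed to 22.6 to 31.9 CPM at SiO2 day 7 and 22.4 to 29.7 CPM at BLM day 14, against 5.15 to 5.70 CPM in untreated libraries. Ndufa4l2 averaged 13.7 ± 1.04 CPM at SiO2 day 7 and 4.23 ± 3.38 CPM at BLM day 14, against 5.11 ± 1.99 CPM in untreated libraries. The part of these cells in the Ndufa4l2 values was not tested. Shmt2 overlaps Ndufa4l2 on the opposite strand. It averaged 4.10 ± 0.146 CPM at SiO2 day 7 and 5.67 ± 2.40 CPM at BLM day 7, against 2.88 ± 0.384 CPM in untreated libraries. Its log2 fold change at SiO2 day 7 was 0.53 ± 0.39 (adjusted p = 0.286), and at SiO2 day 7 over BLM day 7 it was -0.45 ± 0.35 (adjusted p = 0.490).

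Ndufa4 averaged 25.8 ± 1.74 CPM at BLM day 14, against 16.0 ± 1.68 CPM in untreated libraries, a log2 fold change of 0.70 ± 0.22 (adjusted p = 0.010, and 0.058 without untreated replicate 2). Cox6b2, the isoform of subunit VIb known from testis, had 0.251, 0.531 and 1.27 CPM at SiO2 day 7, against 3.63, 2.76 and 2.34 CPM in untreated libraries. The groups did not overlap, at log2 -2.07 ± 0.61 (adjusted p = 0.0067), but a level this low rests on few counts. Its partner Cox6b1, described above, was higher at that time (log2 0.55 ± 0.18, adjusted p = 0.013, and 0.138 without SiO2 day 7 replicate 2). Cox7a2 averaged 0.767 ± 0.753 CPM at SiO2 day 7, against 1.29 ± 0.946 CPM in untreated libraries, and Cox7a1, its partner known from muscle, had 0.222 CPM in 1 library of BLM day 63 and 0 in the other 20.

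**Figure D3:**
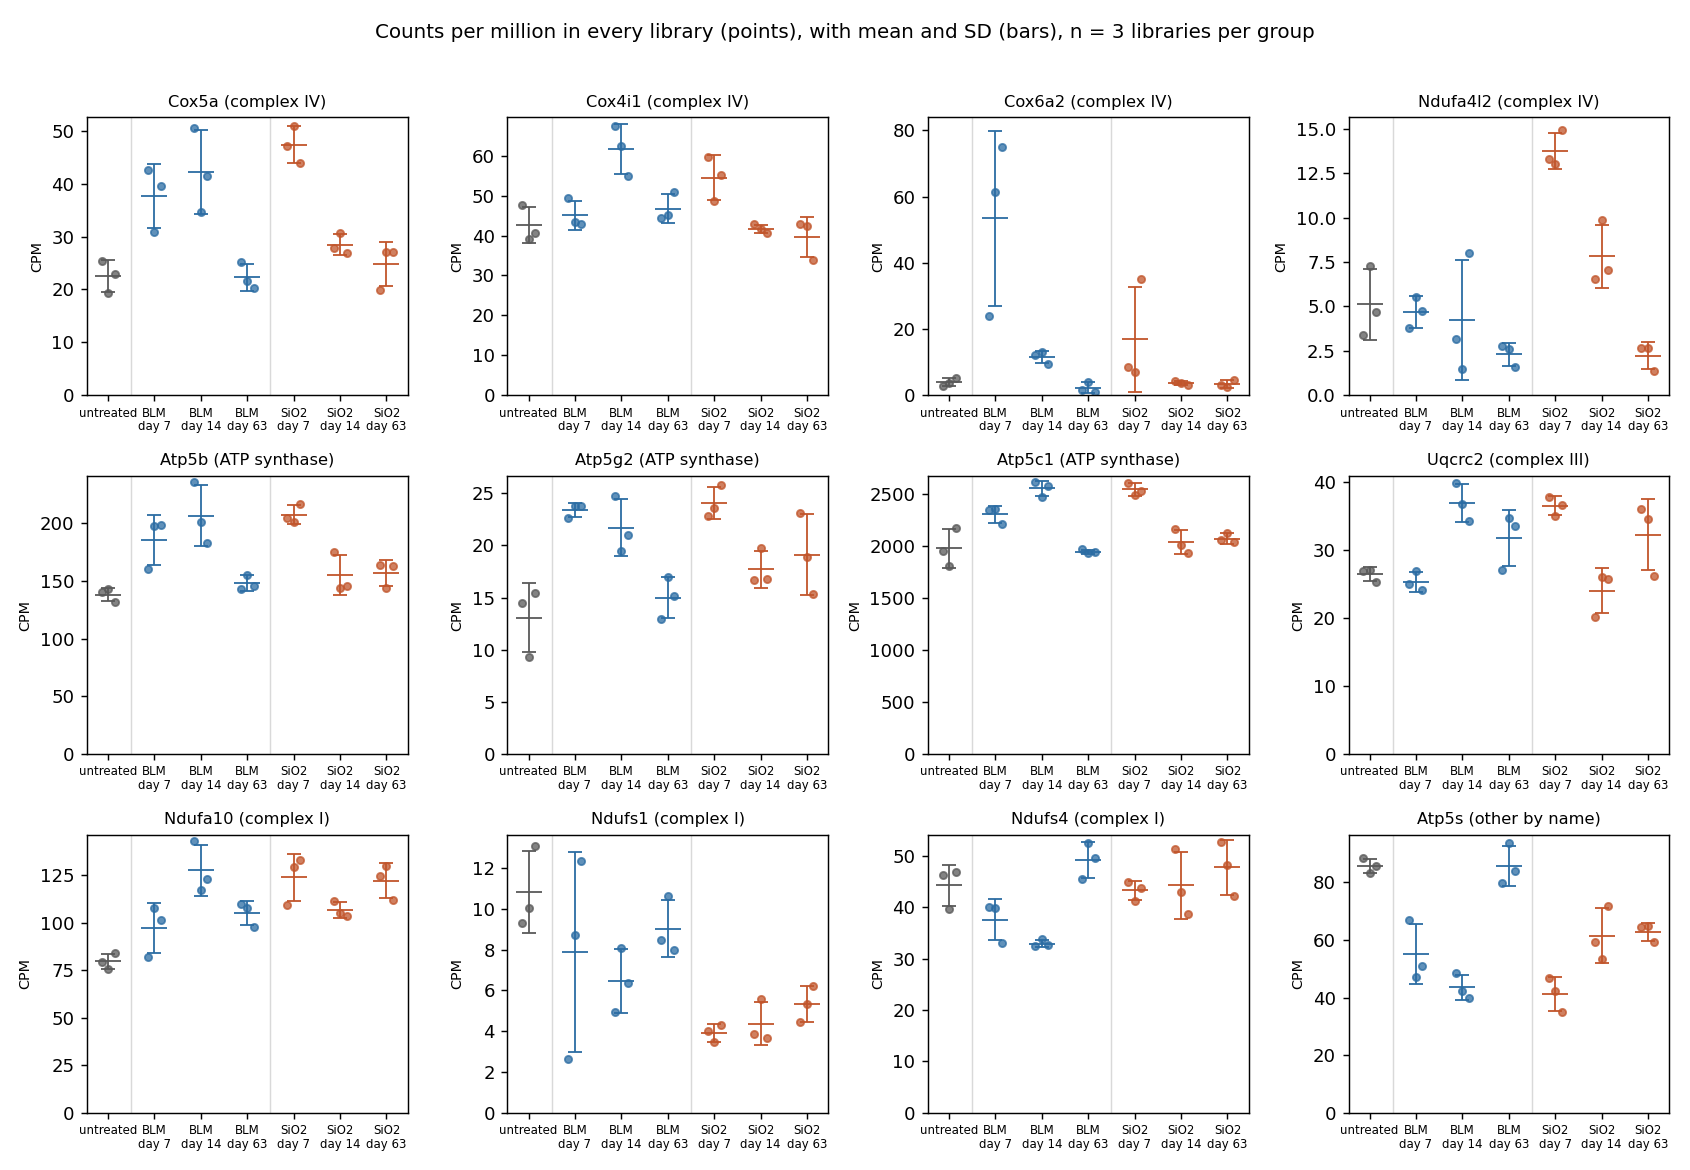
Points are CPM in each library and bars the mean and SD of 3 libraries for 12 members, with untreated at the left, then BLM and SiO2 at day 7, 14 and 63. Cox5a, Atp5b and Atp5c1 are high at BLM day 7, BLM day 14 and SiO2 day 7, Ndufa4l2 is high at SiO2 day 7, and Atp5s is low at the same early times and at 79.9 to 93.6 CPM at BLM day 63.

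Complex III had 3 of 9 tested genes higher and 1 lower at BLM day 14 and 3 higher at SiO2 day 7. It had 3 lower at SiO2 day 14 and 2 lower at SiO2 day 63. Of all tested genes 20.7% were higher and 18.5% lower at BLM day 14, and 23.4% were higher at SiO2 day 7. The shares lower at SiO2 day 14 and SiO2 day 63 were 10.5% and 12.5%. Uqcrc2, one of the large core proteins, had 39.9, 36.8 and 34.3 CPM at BLM day 14 and 37.9, 35.1 and 36.7 CPM at SiO2 day 7, against 26.9, 27.1 and 25.3 CPM in untreated libraries. At BLM day 7 it had 25.0, 26.9 and 24.1 CPM, within or below the untreated range. Uqcrc2 was at log2 0.47 ± 0.15 at BLM day 14 (adjusted p = 0.012) and 0.46 ± 0.15 at SiO2 day 7 (adjusted p = 0.011). Uqcrq, a small subunit near the quinone site, had 13.3, 12.5 and 12.7 CPM at SiO2 day 7, against 8.55, 4.77 and 6.55 CPM in untreated libraries (log2 0.95 ± 0.24, adjusted p = 0.0019). The hinge protein gene Uqcrh averaged 40.3 ± 2.76 CPM at BLM day 14, against 28.1 ± 4.03 CPM in untreated libraries (log2 0.50 ± 0.14, adjusted p = 0.0064).

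The second core protein gene, Uqcrc1, had 1127, 984 and 1100 CPM at SiO2 day 14, against 1371, 1308 and 1212 CPM in untreated libraries. All 3 silica libraries were below the untreated ones, at log2 -0.28 ± 0.09 (adjusted p = 0.020), and the call was lost without untreated replicate 1 (adjusted p = 0.0997), untreated replicate 2 or SiO2 day 14 replicate 2. The small subunit gene Uqcr10 had 33.6, 36.5 and 35.8 CPM at SiO2 day 63, against 65.5, 53.5 and 41.2 CPM in untreated libraries. It fell by 0.53, 0.58 and 0.62 on the log2 scale at BLM day 14, SiO2 day 14 and SiO2 day 63, and without untreated replicate 1 the adjusted p was 0.144, 0.137 and 0.087. Uqcr11 averaged 17.6 ± 3.26 CPM at SiO2 day 14, against 26.2 ± 3.79 CPM in untreated libraries (log2 -0.60 ± 0.18, adjusted p = 0.014), and lost the call without any of 3 libraries. The Rieske iron-sulfur gene Uqcrfs1 averaged 23.4 ± 0.782 CPM at SiO2 day 7, against 16.0 ± 3.37 CPM in untreated libraries (log2 0.51 ± 0.19, adjusted p = 0.027). Cytochrome c1, from Cyc1, averaged 10.8 ± 1.29 CPM at BLM day 14 and 10.4 ± 1.73 CPM at SiO2 day 7, against 8.95 ± 3.34 CPM in untreated libraries, and was not called in any of the 6 comparisons.

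Complex II, also succinate dehydrogenase of the citric acid cycle, had calls in its membrane anchors Sdhc and Sdhd, while its catalytic genes Sdha and Sdhb were not called in any of the 6 comparisons. Sdhc had 914, 836 and 930 CPM at BLM day 63 and 836, 788 and 875 CPM at SiO2 day 63, against 667, 684 and 668 CPM in untreated libraries. All libraries of both day 63 groups were above the untreated ones. Sdhc was at log2 0.41 ± 0.09 at BLM day 63 (adjusted p = 0.0026) and 0.31 ± 0.09 at SiO2 day 63 (adjusted p = 0.010, and 0.052 without SiO2 day 63 replicate 3). Sdhc was the member with the smallest adjusted p at BLM day 63. It was also called at BLM day 14, at 801 CPM on average, against 673 CPM in untreated libraries (log2 0.25 ± 0.09, adjusted p = 0.028). At BLM day 7 and SiO2 day 7 its libraries lay above the untreated ones too, but it was not called. Sdhd had 10.8, 9.83 and 10.1 CPM at SiO2 day 7, against 5.44, 5.53 and 4.68 CPM in untreated libraries, a log2 fold change of 0.95 ± 0.27 (adjusted p = 0.0045). It was also higher at BLM day 14 (log2 0.72 ± 0.28, adjusted p = 0.041). Sdha averaged 28.7 ± 3.63 CPM at BLM day 14 and 26.6 ± 1.35 CPM at SiO2 day 7, against 31.4 ± 2.90 CPM in untreated libraries. Sdhb averaged 7.90 ± 1.18 CPM at BLM day 14 and 8.69 ± 2.93 CPM at SiO2 day 7, against 7.75 ± 0.673 CPM in untreated libraries.

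Complex I had calls in both directions. Of its 33 tested genes, 0 rose and 4 fell at BLM day 7, 1 rose and 3 fell at BLM day 14, and 3 rose and 2 fell at SiO2 day 7. At SiO2 day 63, 1 rose and 5 fell. Of all tested genes 16.7%, 20.7%, 23.4% and 15.3% were higher in these comparisons, in order. The shares lower were 14.9%, 18.5%, 20.6% and 12.5%. Ndufa10, an accessory subunit on the matrix side of the membrane arm, rose in 5 of the 6 comparisons. It had 143, 117 and 123 CPM at BLM day 14, 109, 129 and 133 CPM at SiO2 day 7 and 125, 129.7 and 112 CPM at SiO2 day 63, against 79.3, 75.6 and 83.8 CPM in untreated libraries. These treated libraries were all above the untreated ones. Ndufa10 was at log2 0.68 ± 0.11 at BLM day 14 (adjusted p = 1.6e-05), 0.64 ± 0.11 at SiO2 day 7 (adjusted p = 2.9e-05) and 0.62 ± 0.11 at SiO2 day 63 (adjusted p = 8.7e-05). At SiO2 day 14 it was 0.43 ± 0.11 (adjusted p = 0.0062), and at BLM day 63 it was 0.40 ± 0.11 (adjusted p = 0.019, and 0.088 without untreated replicate 2).

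Ndufs1 (chr1:63143596-63176833, - strand) encodes the largest iron-sulfur subunit of the electron input arm. It had 4.01, 3.45 and 4.30 CPM at SiO2 day 7, 3.86, 5.60 and 3.64 CPM at SiO2 day 14 and 4.47, 5.32 and 6.23 CPM at SiO2 day 63, against 9.32, 10.0 and 13.1 CPM in untreated libraries. All 9 silica libraries were below the untreated ones. Ino80dos overlaps the end of Ndufs1 on the opposite strand and averaged 0.168 ± 0.145, 0.877 ± 0.250 and 1.02 ± 0.506 CPM at SiO2 day 7, 14 and 63, against 2.24 ± 0.329 CPM in untreated libraries. It moved with Ndufs1 at these low counts, and its part in the Ndufs1 values was not tested. The log2 fold change was -1.42 ± 0.34 at SiO2 day 7 (adjusted p = 0.0010), -1.27 ± 0.34 at SiO2 day 14 (adjusted p = 0.0054) and -0.97 ± 0.32 at SiO2 day 63 (adjusted p = 0.022, and 0.083 without SiO2 day 63 replicate 1). At BLM day 7 it had 2.61, 8.72 and 12.4 CPM, a wide spread that overlapped with untreated. At BLM day 14 Ndufs1 averaged 6.46 CPM, against 10.8 CPM in untreated libraries, and its libraries were all below the untreated ones. The log2 fold change there was -0.70 ± 0.32 (adjusted p = 0.086). At BLM day 63 the libraries overlapped with untreated, and Ndufs1 was not called at any day of BLM. The test of SiO2 over BLM did not pass for Ndufs1 at day 7 (log2 -0.99 ± 0.35, adjusted p = 0.070), day 14 (-0.57 ± 0.36, adjusted p = 0.317) or day 63 (-0.74 ± 0.32, adjusted p = 0.130), so its change was not shown to differ between the models.

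Ndufa5, an accessory subunit of the input arm, averaged 4.27 ± 0.461 CPM at BLM day 14, against 9.07 ± 1.15 CPM in untreated libraries (log2 -1.08 ± 0.31, adjusted p = 0.0065). Ndufs4, an accessory subunit needed for a stable input arm, had 32.5, 33.8 and 32.6 CPM at BLM day 14, against 46.4, 39.7 and 46.8 CPM in untreated libraries (log2 -0.42 ± 0.14, adjusted p = 0.016, and 0.059 without untreated replicate 1). Ndufb3, an accessory subunit of the membrane arm, had 11.3, 9.77 and 8.24 CPM at BLM day 7, against 15.8, 14.8 and 14.5 CPM in untreated libraries (log2 -0.62 ± 0.20, adjusted p = 0.019). The call was lost without untreated replicate 1 (adjusted p = 0.069) and without BLM day 7 replicate 2 (0.054) or 3 (0.089). Ndufv1, which carries the NADH site, averaged 13.4 ± 0.335 CPM at SiO2 day 7, against 18.0 ± 3.75 CPM in untreated libraries, and was not called in any of the 6 comparisons.

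The pair that matched by name only went the other way from the ATP synthase subunits. Atp5s had 67.0, 47.3 and 51.0 CPM at BLM day 7, 48.4, 42.4 and 39.8 CPM at BLM day 14 and 46.7, 42.2 and 34.9 CPM at SiO2 day 7, against 88.3, 83.4 and 85.7 CPM in untreated libraries. It had 79.9, 93.6 and 83.8 CPM at BLM day 63, around the untreated level, and 64.7, 64.7 and 59.2 CPM at SiO2 day 63, below it. The log2 fold change was -0.64 ± 0.14, -0.98 ± 0.14 and -1.06 ± 0.14 at BLM day 7, BLM day 14 and SiO2 day 7 (adjusted p = 0.00048, 1.2e-06 and 2.2e-07). Its value at SiO2 day 63 was -0.45 ± 0.13 (adjusted p = 0.010). Atp5sl had 74.5, 75.3 and 66.6 CPM at BLM day 14, against 135, 122 and 143 CPM in untreated libraries. Atp5sl fell in all 6 comparisons, from log2 -0.44 ± 0.11 at BLM day 63 (adjusted p = 0.0093, and 0.068 without BLM day 63 replicate 3) to -0.89 ± 0.12 at BLM day 14 (adjusted p = 3.1e-07). Atp5c1-ps was not called in any of them.

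SiO2 libraries were next set against BLM libraries of the same day, to ask where the progressive and the reversible model differ. At day 7, 4 members were higher in SiO2 and 1 was lower (6.49% called, against 10.4%), where of all tested genes 5.29% were higher and 5.1% lower. At day 14, 2 were higher and 11 lower (16.9%, against 17.1%), where of all tested genes 9.06% were higher and 8.03% lower. At day 63, 0 were higher and 2 lower (2.60%, against 15.6%), where of all tested genes 9.13% were higher and 6.44% lower. At day 63, 4 members had an unadjusted p under 0.05, and DESeq2 also called 0 higher and 2 lower. The share of members with a positive log2 fold change was 19.5% at day 14, where it was 50.0% over all tested genes, and the median was -0.22, where that of all genes was 0.00. These counts moved when a library was left out: at day 14 it was 7 without BLM day 14 replicate 1 or SiO2 day 14 replicate 3 and 8 without BLM day 14 replicate 2. At day 7 it was 2 without SiO2 day 7 replicate 3 and 3 without BLM day 7 replicate 1, BLM day 7 replicate 3 or SiO2 day 7 replicate 2. At day 63 it was 0 without BLM day 63 replicate 2 or SiO2 day 63 replicate 3, and 1 without BLM day 63 replicate 1 or SiO2 day 63 replicate 2.

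The 11 members lower at SiO2 day 14 than at BLM day 14 came from complex I (Ndufa3), complex III (Uqcrc1, Uqcrc2, Uqcrh), complex IV (Cox4i1, Cox5a, Cox6a2, Cox6b1) and the ATP synthase (Atp5b, Atp5c1, Atp5l). The 5 whose call held without each library in turn were Uqcrc2, Cox4i1, Atp5l, Uqcrc1 and Atp5c1. The end of Cox4i1 overlaps Gm20388 on the same strand. Those of Uqcrc2, Uqcrh and Ndufa3 overlap Pdzd9, Gm12854 and Tfpt on the opposite strand. The part of these genes in the counts was not tested. Uqcrc2 had 20.2, 26.1 and 25.8 CPM at SiO2 day 14, against 39.9, 36.8 and 34.3 CPM at BLM day 14, and Cox4i1 had 42.8, 41.6 and 40.6 CPM, against 67.5, 62.5 and 55.0 CPM. In both genes the groups did not overlap. The log2 fold change of SiO2 over BLM was -0.61 ± 0.15 for Uqcrc2 (adjusted p = 0.0033) and -0.56 ± 0.13 for Cox4i1 (adjusted p = 0.0021). Atp5l was at -0.56 ± 0.13 (adjusted p = 0.0022), Atp5c1 at -0.33 ± 0.08 (adjusted p = 0.0050) and Uqcrc1 at -0.35 ± 0.09 (adjusted p = 0.0046). Cox5a was at -0.56 ± 0.16 (adjusted p = 0.013), and at -0.42 with adjusted p = 0.122 without BLM day 14 replicate 1. The 2 members higher in SiO2 were Atp5s (0.50 ± 0.14, adjusted p = 0.011, and 0.109 without SiO2 day 14 replicate 3) and Ndufs4 (0.42 ± 0.14, adjusted p = 0.029, and 0.183 without SiO2 day 14 replicate 1).

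At day 7 the models differed in Ndufa4l2, given above, and in Cox6a2, which was lower in SiO2 by log2 -1.66 ± 0.37 (adjusted p = 0.0023, and 0.051 in DESeq2). The Cox6a2 values of the SiO2 and BLM libraries overlapped at that day. Uqcrc2 was higher in SiO2 by 0.53 ± 0.15 (adjusted p = 0.016, and 0.058 to 0.068 without each of 4 libraries). At day 63 the members lower in SiO2 included Atp5s (-0.45 ± 0.13, adjusted p = 0.017, and 0.089 without BLM day 63 replicate 2). The myeloid markers summed to 26.5 to 48.1 CPM at SiO2 day 14, against 18.2 to 23.0 CPM at BLM day 14. The pericyte and smooth muscle markers summed to 8.91 to 12.8 CPM at SiO2 day 14, against 22.4 to 29.7 CPM at BLM day 14. Mesothelial markers summed to 93.5 to 195 CPM at SiO2 day 14, against 75.9 to 88.4 CPM at BLM day 14, and lymphocyte markers to 22.8 to 33.8 CPM, against 8.29 to 15.5 CPM. These sums moved with the day 14 difference, and their part in it was not tested.

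**Figure D4:**
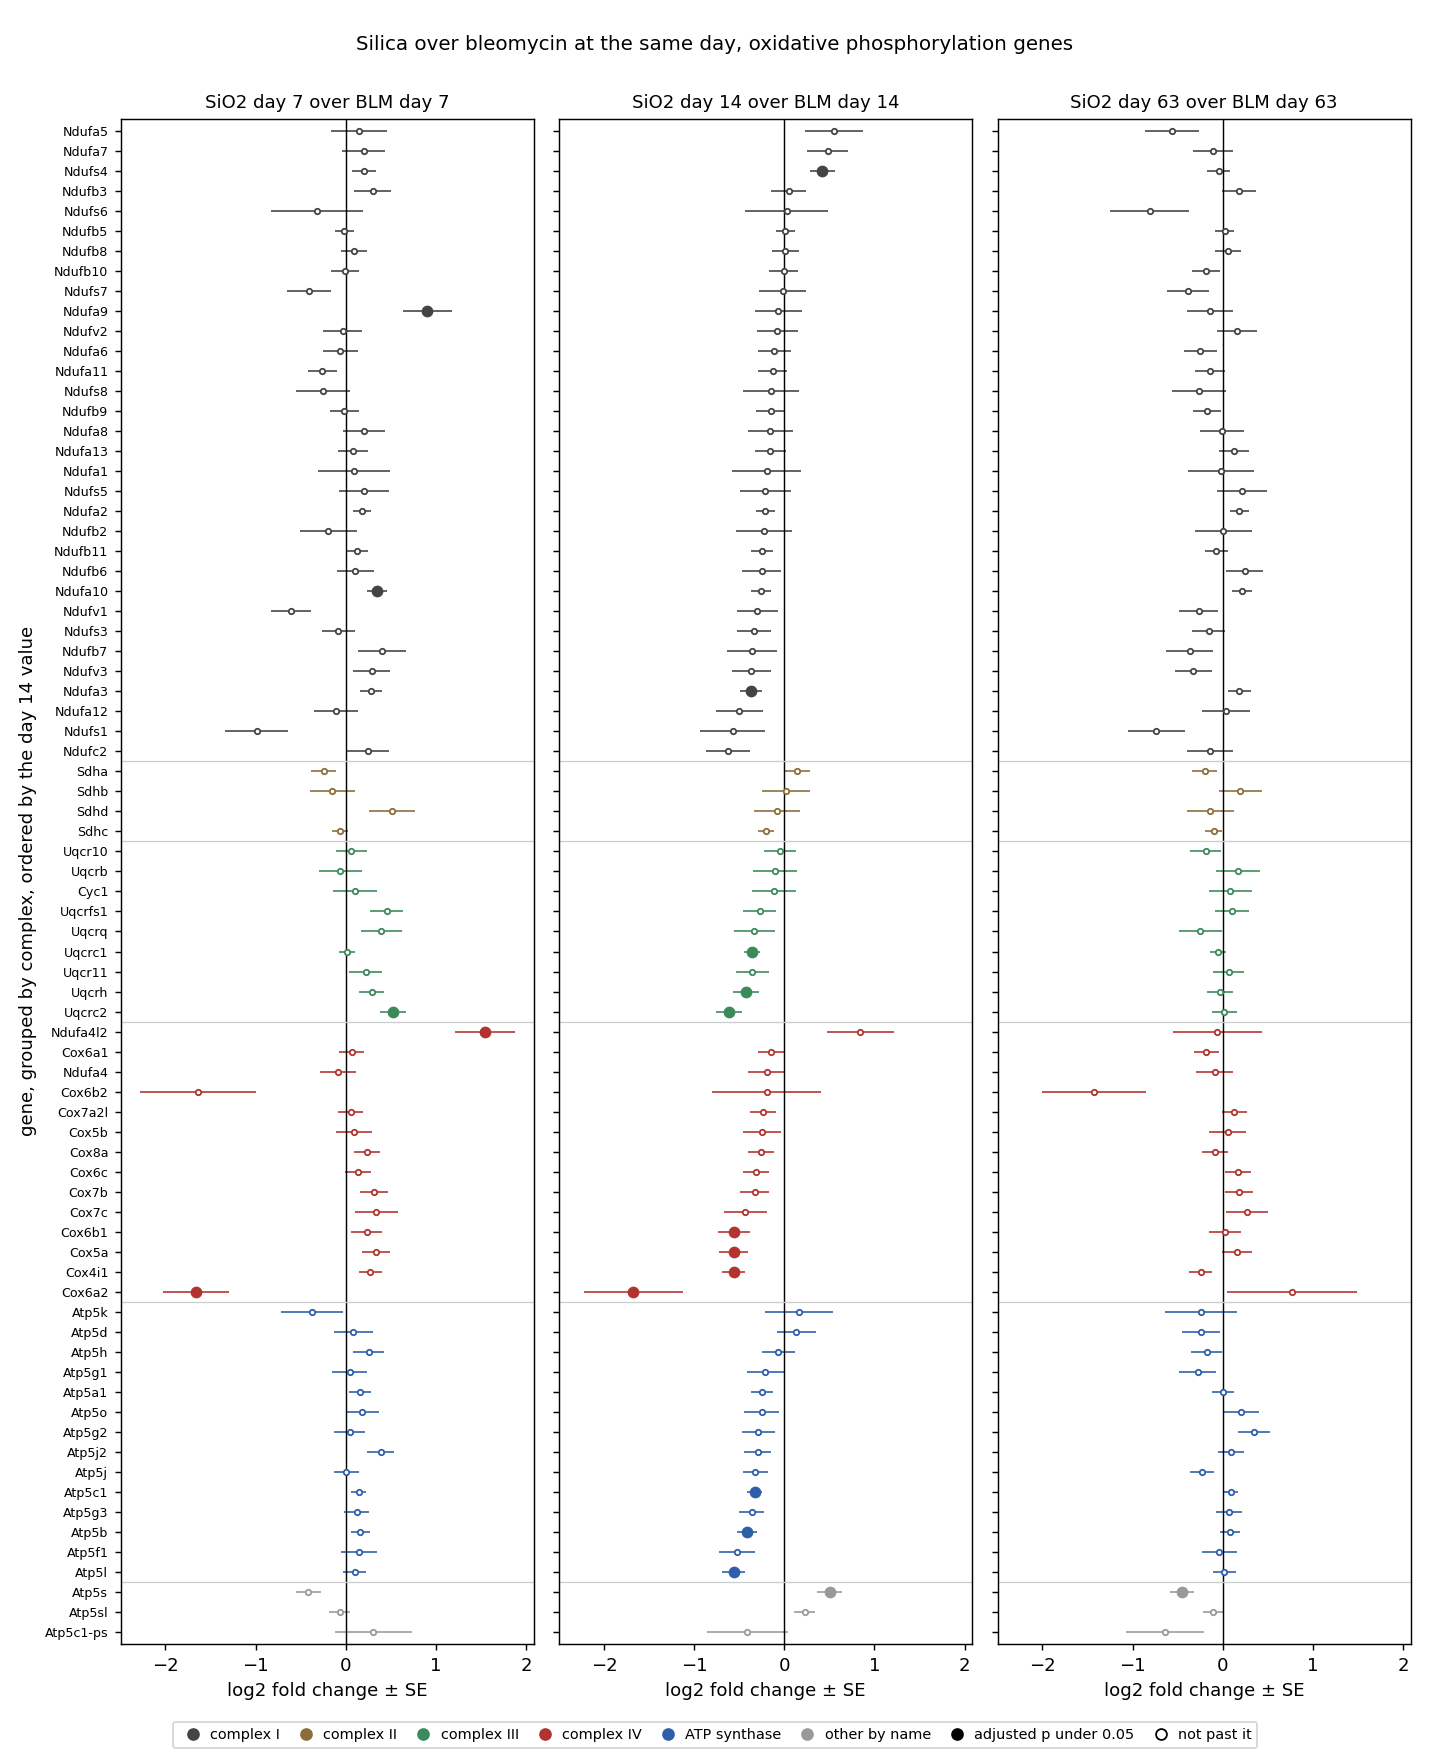
Points are log2 fold changes of SiO2 over BLM at day 7, 14 and 63 for 76 tested members, bars are their SE, and filled points passed an adjusted p of 0.05. At day 14 most complex I, complex III, complex IV and ATP synthase genes lie left of 0, and at day 63 the points are spread around 0.

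The timing of the change within each model was asked of the day-to-day comparisons. At BLM day 14 over BLM day 7, 4 members rose and 1 fell, so that 6.49% were called, against 10.0%, and of all tested genes 5.2% were higher and 4.82% lower. At BLM day 63 over BLM day 14, 5 rose and 16 fell (27.3%, against 32.3%), where of all tested genes 15.4% were higher and 16.9% lower. At SiO2 day 14 over SiO2 day 7, 1 rose and 10 fell (14.3%, against 23.3%), where of all tested genes 12.2% were higher and 11.1% lower. At SiO2 day 63 over SiO2 day 14, 0 rose and 1 fell (1.30%, against 3.52%), where of all tested genes 1.53% were higher and 2% lower. In the last comparison 5 members had an unadjusted p under 0.05, and DESeq2 called 1. In BLM the fall between day 14 and day 63 took in 5 ATP synthase, 4 complex IV, 4 complex I and 3 complex III genes. In SiO2 the fall between day 7 and day 14 took in 4 ATP synthase, 3 complex IV, 2 complex III and 1 complex I genes. Without BLM day 14 replicate 1 the BLM day 63 over day 14 count was 13, and without SiO2 day 7 replicate 3 the SiO2 day 14 over day 7 count was 7. The BLM day 14 over day 7 count was 1 to 3 without BLM day 14 replicate 1, BLM day 14 replicate 2, BLM day 7 replicate 1 or BLM day 7 replicate 3.

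Of single members, Atp5g3 had 36.3, 33.0 and 41.4 CPM at BLM day 63, against 65.3, 55.6 and 55.5 CPM at BLM day 14 (log2 -0.66 ± 0.14, adjusted p = 0.00047). Atp5b was at -0.48 ± 0.11 (adjusted p = 0.00096) and Atp5c1 at -0.39 ± 0.08 (adjusted p = 0.0004) in that comparison. Ndufc2, another accessory subunit of complex I, had 5.72, 8.32 and 6.23 CPM at BLM day 63, against 10.9, 9.56 and 10.5 CPM at BLM day 14 (log2 -0.62 ± 0.24, adjusted p = 0.047). The call was lost without any 1 of BLM day 14 replicates 1, 2 and 3 and BLM day 63 replicates 1 and 3, with adjusted p up to 0.159, and in DESeq2 (adjusted p = 0.104). Members that rose between those days included Atp5s (0.98 ± 0.14, adjusted p = 1.5e-06), Ndufs4 (0.58 ± 0.13, adjusted p = 0.0012), Atp5sl (0.45 ± 0.12, adjusted p = 0.0032) and Ndufs7 (0.67 ± 0.24, adjusted p = 0.034, and 0.242 without BLM day 14 replicate 3). At SiO2 day 14 over day 7, Uqcrc2 was at -0.60 ± 0.15 (adjusted p = 0.0025), with 20.2, 26.1 and 25.8 CPM at day 14, against 37.9, 35.1 and 36.7 CPM at day 7. Between SiO2 day 14 and day 63 the single call was Ndufa4l2, at -1.84 ± 0.40 (adjusted p = 0.0074, and 0.061 without SiO2 day 63 replicate 3). The interaction (log2 SiO2 day 63 over day 14, minus the same ratio in BLM) was positive for 7 members and negative for 1 (10.4% called, against 18.5%), where of all tested genes it was positive and called in 9.7% and negative and called in 8.81%. The count was 3 without BLM day 14 replicate 1 and 4 without SiO2 day 63 replicate 1 or 2.

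Other genes of the pathway were taken from lists, whose counts stand beside the share of all tested genes called. That share was 16.7% higher and 14.9% lower at BLM day 7, 20.7% and 18.5% at BLM day 14, and 23.4% and 20.6% at SiO2 day 7. It was 6.02% and 5.48% at BLM day 63, 13.6% and 10.5% at SiO2 day 14, and 15.3% and 12.5% at SiO2 day 63. Of 8 tested genes for cytochrome c and the carriers that bring ADP and phosphate to the ATP synthase, 4 rose at BLM day 7, 6 at BLM day 14 and 6 at SiO2 day 7, 3 at SiO2 day 14 and 2 at SiO2 day 63, and 0 fell in these. By edgeR 0 were called at BLM day 63. The ADP/ATP exchangers Slc25a4 and Slc25a5 rose by log2 1.00 ± 0.12 and 1.07 ± 0.14 at BLM day 14 and by 0.79 ± 0.12 and 0.94 ± 0.14 at SiO2 day 7. The phosphate carrier Slc25a3 and the outer membrane channel Vdac1 rose by 0.87 ± 0.14 and 0.87 ± 0.13 at BLM day 14. At SiO2 day 14 over BLM day 14, 4 of the 8 were lower and 0 higher. In that comparison 8.03% of all tested genes were lower and 9.06% higher.

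Of 37 tested assembly factors, 7 rose and 2 fell at BLM day 14 and 5 rose and 4 fell at SiO2 day 7. Of 72 mitochondrial ribosome genes, 10 rose and 2 fell at both BLM day 7 and SiO2 day 7, and 7 rose and 5 fell at BLM day 14. Of 20 import translocase genes, 6 rose and 2 fell at BLM day 14 and again at SiO2 day 7. The citric acid cycle genes, 16 tested, had 1 higher and 3 lower at BLM day 14 and 4 higher and 2 lower at SiO2 day 7. Ogdh, of the oxoglutarate dehydrogenase complex, was at -0.71 ± 0.09 in both. Of 14 regulators of mitochondrial biogenesis, 1 rose and 2 fell at BLM day 14. The factor gene Nrf1 was lower (-0.75 ± 0.18, adjusted p = 0.0014) and the nuclear receptor gene Esrra higher (0.89 ± 0.27, adjusted p = 0.0098). Of 16 glycolysis genes, 8 rose and 2 fell at BLM day 14 and 9 rose and 1 fell at SiO2 day 7, with Ldha, which makes lactate, at 1.46 ± 0.15 and 1.63 ± 0.15. At SiO2 day 7 over BLM day 7, 10 of the 16 glycolysis genes were higher and 0 lower, where 5.29% of all tested genes were higher and 5.1% lower.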

How the data were processed

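The authors deposited raw counts of sequence tags per gene symbol, 1 file per library, from 3′SAGE-seq on an Ion Proton sequencer. Per the submitters' processing notes, Bowtie2 2.2.5 and mm10 were used; the annotation, counter, strand setting and tag enzyme are not given in the sources used here. A 3′ tag method counts transcript ends, so no length correction was made.

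Counts of all symbols were fitted in 1 model over 7 groups and 21 libraries with edgeR 4.0.16 in R 4.3.3 (filterByExpr, TMM, quasi-likelihood test, Benjamini-Hochberg adjustment over 11669 genes, threshold 0.05). SE is the log2 fold change divided by the square root of F. Fits with DESeq2 1.42.0, other scalings, no filter, a replicate block and each library left out were alternatives, and the procedure was tested on simulated data. Pairs of replicate libraries differed by more than sampling noise, with a chi-square per degree of freedom of at least 2.80. The labels name no batch.

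The members and lists were chosen with earlier results of these data known. Named genes were, per comparison, up to 4 called members with the largest and up to 4 with the smallest fold change whose groups did not overlap and that reached 10 CPM in 1 group, together with isoform pairs and core subunits; other called members are named where a count is described. Gene positions are from GENCODE vM21 on mm10. In 12 members the last 500 bases overlap a gene on the opposite strand and in 5 a gene on the same strand, so their counts may be shared. Values of 1 member are not reported here, though the counts include it.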

Additional observations from a re-analysis of the deposited data

Results flagged for a closer look

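In 8 of 77 tested members the change between day 14 and day 63 differed between the models by the test of the interaction (SiO2 day 63 over day 14 minus BLM day 63 over day 14, edgeR, adjusted p under 0.05). Of all tested genes 18.5% were called in this test, 9.7% with a positive and 8.81% with a negative value. The interaction was 0.71 for Cox5a, 0.63 for Uqcrc2, 0.58 for Atp5l, 0.55 for Ndufa3, 0.50 for Atp5b, 0.47 for Ndufa10 and 0.42 for Atp5c1 on the log2 scale. It was -0.95 for Atp5s. A positive value means that the change over that interval was more positive in SiO2 than in BLM. For Atp5s, BLM libraries had 79.9, 93.6 and 83.8 CPM at day 63 and 48.4, 42.4 and 39.8 CPM at day 14, while SiO2 libraries had 64.7, 64.7 and 59.2 CPM at day 63 and 59.1, 53.3 and 71.9 CPM at day 14. Of the 8 calls, 2 held when each library was left out in turn. These were Atp5c1 and Atp5s, whose calls held in all alternatives run. On library totals only, 3 members were called.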

How the results depend on the processing

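Of 160 called member values, 0 reversed under any alternative, but calls were lost. Of 160, 29 lost the call with no filter, 24 in DESeq2, 23 on library totals, 19 with upper quartile scaling, 7 with the replicate block and 5 with DESeq2 size factors. Of 1008 values without 1 library, 272 lost it. Counts of called members by the fits without 1 library ran from 10 to 14 at BLM day 7, 22 to 25 at BLM day 14, 2 to 5 at BLM day 63, 21 to 29 at SiO2 day 7, 4 to 9 at SiO2 day 14 and 8 to 12 at SiO2 day 63. For SiO2 over BLM they ran from 2 to 5 at day 7, 7 to 10 at day 14 and 0 to 2 at day 63. They ran from 1 to 4 for BLM day 14 over day 7, 13 to 22 for BLM day 63 over day 14, 7 to 15 for SiO2 day 14 over day 7, 0 to 1 for SiO2 day 63 over day 14 and 3 to 8 for the interaction. DESeq2 called 2 members for SiO2 over BLM at day 7, where edgeR called 5. With no filter, 3 were called for BLM day 14 over day 7 in place of 5, and with library totals 3 for the interaction in place of 8. On library totals the summed CPM was 7716 at BLM day 63 and 8624 at SiO2 day 7 over all members, 2056 for complex I, 1361 for complex III, 393 for complex IV and 2723 for the ATP synthase at BLM day 63, 3336 for the ATP synthase at SiO2 day 7 and 728 for complex II in untreated libraries. The cause of these moves was not tested. Libraries with the same replicate number did not deviate together: the correlation of their deviations ran from -0.12 to 0.0616 over 63 pairs, 0 of them over 0.1, and 5 of 21 libraries correlated best with their own number. With the replicate block, the counts were 15, 24 and 3 at BLM day 7, 14 and 63 and 26, 8 and 13 at SiO2 day 7, 14 and 63. For SiO2 over BLM with the block they were 4, 13 and 2. Depth limits genes such as Cox6b2, at 1.76 CPM on average.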
